A study of Homo sapiens with 9 samples.

Results

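Metallothioneins are the small metal-binding proteins of the cytosol, and SLC30A1 is the transporter that moves zinc out across the cell membrane. All probe sets of MT1E, MT1F, MT1G, MT1H, MT1M, MT1X, MT2A and SLC30A1 were taken from the array, whatever their values. These 8 genes, of 12165 named on the array, had 12 of its 22215 probe sets, 11 for the 7 metallothionein genes and 1 for SLC30A1. The array held 3 further metallothionein probe sets, for MT1HL1, MT3 and MT4, which brought the family with SLC30A1 to 15. No probe set of the family was annotated to several genes.

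The cells were LNCaP, an established line of human prostate cancer that carries the androgen receptor and responds to hormone. All 9 cultures were first starved of androgen for 2 days in serum stripped with charcoal. The vehicle group (3 arrays) then received ethanol and DMSO. The androgen group (3 arrays) received the synthetic androgen R1881 at 1 nM, and the combined group (3 arrays) received R1881 at 1 nM with celastrol, a triterpenoid from a medicinal vine, at 1.25 µM. The labels give the vehicle and combined groups 24 h of treatment. For the androgen group the sample titles say 6 h while the descriptions and the series design say 24 h, so that time and treatment cannot be told apart in comparisons with that group if the titles are right. Celastrol without androgen was not analysed here, so every celastrol value below was measured with hormone present. The labels call the replicates biological without saying how the cultures were separated, so p-values measure the spread between these samples.

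Metallothioneins bind zinc and copper through cysteine thiols and also take up cadmium and other toxic metals. Their transcription rises when free zinc rises: the zinc-sensing factor MTF1 then binds short metal response elements upstream of the genes, and it acts at SLC30A1 in the same way, so that a cell both stores and exports excess zinc. Metallothionein genes also respond to oxidants and to steroid hormones such as glucocorticoids. The prostate is known for high zinc, which normal luminal cells accumulate and cancer cells largely lose.

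The metallothionein members lie together on chromosome 16. In the RefSeq gene order (GRCh38.p14) they run MT2A, MT1E, MT1M, MT1F, MT1G, MT1H and MT1X, with other family genes and pseudogenes between some of them, while SLC30A1 lies on chromosome 1. The promoter table held 4 of the 8 members, namely MT2A, MT1X, MT1H and SLC30A1. They are shown because these genes cover both kinds of response described here, that of the metallothioneins to celastrol and that of SLC30A1 to androgen. Each line gives the 250 bases before the transcription start, 5′ to 3′ in the direction of the gene, from RefSeq on GRCh38.p14. The windows are chr16:56608334-56608583 on the plus strand for MT2A, chr16:56682220-56682469 on the plus strand for MT1X, chr16:56669564-56669813 on the plus strand for MT1H, and chr1:211579162-211579411 on the minus strand for SLC30A1. Capitals mark every match, on either strand, to the core of the metal response element, searched as TGCACNC or TGCGCNC.
MT2A: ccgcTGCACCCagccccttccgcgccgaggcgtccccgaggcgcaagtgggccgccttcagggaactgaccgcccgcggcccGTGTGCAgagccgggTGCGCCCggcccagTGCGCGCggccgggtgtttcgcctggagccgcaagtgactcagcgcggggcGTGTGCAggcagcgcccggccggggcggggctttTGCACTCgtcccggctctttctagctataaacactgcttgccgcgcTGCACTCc
MT1X: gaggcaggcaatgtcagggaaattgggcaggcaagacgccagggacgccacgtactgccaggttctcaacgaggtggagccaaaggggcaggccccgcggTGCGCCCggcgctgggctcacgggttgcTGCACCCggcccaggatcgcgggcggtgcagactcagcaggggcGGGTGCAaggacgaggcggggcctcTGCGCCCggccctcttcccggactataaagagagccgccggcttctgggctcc
MT1H: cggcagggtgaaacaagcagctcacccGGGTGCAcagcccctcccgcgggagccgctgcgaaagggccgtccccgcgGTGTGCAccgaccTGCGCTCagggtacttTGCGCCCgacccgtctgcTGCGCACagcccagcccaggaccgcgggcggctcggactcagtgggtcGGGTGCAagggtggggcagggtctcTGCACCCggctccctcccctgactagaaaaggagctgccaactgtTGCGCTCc
SLC30A1: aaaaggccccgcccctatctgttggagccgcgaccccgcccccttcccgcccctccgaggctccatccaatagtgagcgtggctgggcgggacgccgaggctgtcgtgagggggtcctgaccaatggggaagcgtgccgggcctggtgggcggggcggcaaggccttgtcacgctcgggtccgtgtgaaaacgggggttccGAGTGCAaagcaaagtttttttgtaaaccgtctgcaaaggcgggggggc

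The MT1H window held 8 matches to the metal core, the MT2A window 7 and the MT1X window 4, against 1 for SLC30A1. Of the 35114 promoters in the table, searched over the same length, 0.0171% held at least 8 matches, 0.0313% at least 7, 0.370% at least 4 and 24.8% at least 1. MT1X and MT1H had matches at the same places, from -78 to -72 and from -53 to -47 counted from the start. MT2A and MT1H shared one from -8 to -2. The core of the antioxidant response element, searched on both strands as TGACNNNGC, matched from -104 to -96 in MT2A, from -243 to -235 in MT1X and from -88 to -80 in SLC30A1, with none in the MT1H window and no overlap with a metal match. At least 1 such match was held by 10.9% of all promoters. A match is a stretch of letters, and binding was not measured.

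**Figure D1:**
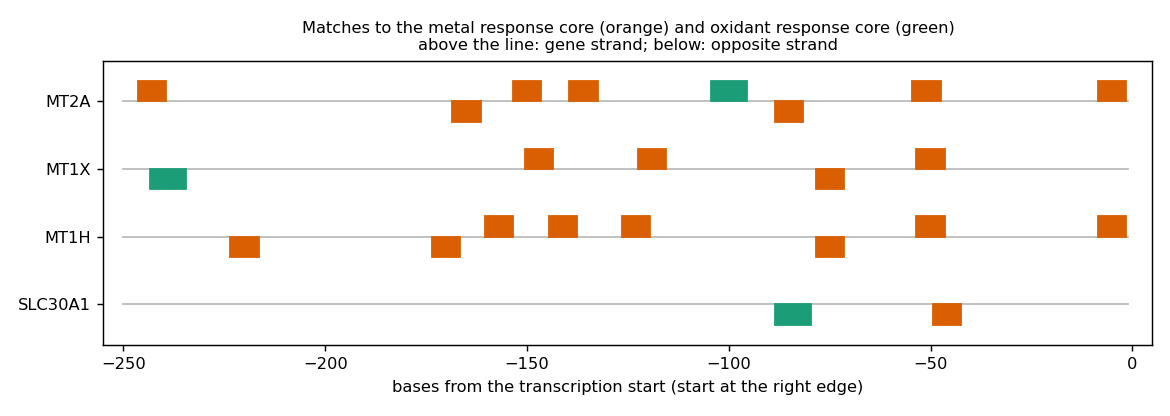
Matches to the metal response element core and to the antioxidant response element core in the 250 bases before the start of 4 members, by distance from the transcription start in bases. The metallothionein windows hold 8 (MT1H), 7 (MT2A) and 4 (MT1X) metal core matches and the SLC30A1 window holds 1.

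Of the luminal epithelial markers on the array, 7 of 7 (KLK3, KLK2, FOLH1, TMPRSS2, KRT8, KRT18 and EPCAM) lay above the array median on all 9 arrays. None of the 2 basal, 3 fibroblast, 3 endothelial and 3 leukocyte markers did so. Vehicle array 3 stood apart from the others: its log2 values deviated from its group mean with an SD of 0.31, against 0.12 to 0.21 on the other 8 arrays. It was the lowest vehicle array in 8 of the 9 metallothionein probe sets whose names end in x_at. Values are intensities on a linear scale from RMA, the authors' own normalization, and array number rather than depth limits their precision. Fold changes and adjusted p-values below come from limma, fitted on log2 values of all 9 arrays and adjusted by Benjamini and Hochberg over all 22215 probe sets, with 0.05 as the threshold. Since probe sets differ in binding, members are not ranked by level. Levels serve only to place markers, to mark low readings and to choose the brightest probe set of a gene.

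Adding celastrol to androgen raised 8 of the 11 metallothionein probe sets, which are annotated to 6 of the 7 genes. All 8 carry the suffix x_at, which Affymetrix gives to sets with some probes that also match other transcripts, so they do not count as 6 genes read apart from each other. MT1G, MT1H, MT1F, MT1X and MT2A were between 3.11-fold and 3.86-fold higher in their single or brightest probe sets, and MT1M, from readings near the low end of the array, was 1.91-fold higher. MT1E, and the second probe sets of MT1G and MT1M, did not pass the test. SLC30A1 did not pass it either, at 1.15-fold. Of the 12 member probe sets 8 were called higher and 0 lower (0 also at an unadjusted p under 0.05), where 6.91% of all probe sets were called higher and 5.66% lower. The median log2 change was 1.65 over the 11 metallothionein probe sets and 0.02 over all probe sets, and 36 probe sets of 22215 rose at least as far as the highest member.

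MT2A, the metallothionein-2 isoform found in nearly all tissues, read 1029.6, 1116 and 992 on the androgen arrays. With celastrol it read 3003, 3249 and 3526. Every celastrol array was above every androgen array, and above every vehicle array, where MT2A read 1501, 1466 and 1252. The means were 1046 ± 63.9 and 3259 ± 261 (SD, n = 3 each), a log2 change of 1.64 ± 0.10 (SE), and limma gave an adjusted p of 4.14e-05.

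MT1X, a metallothionein-1 isoform at the end of the cluster, had a pair of probe sets. The first, 208581_x_at, read 708, 739 and 741 with androgen and 2447, 2702 and 2317 with celastrol added. The vehicle arrays read 893, 882 and 647, again below all celastrol arrays. The change from androgen to the combination was 3.41-fold (log2 1.77 ± 0.13, limma adjusted p = 8.82e-05). The second, 204326_x_at, moved from 538 ± 90.8 to 1675 ± 188 (SD, n = 3 each), with no overlap (log2 1.65 ± 0.15, limma adjusted p = 0.000207). This probe set is annotated to MT1X, but the accession listed with it belongs in RefSeq to MT1L, a transcribed pseudogene of the cluster, so which of these it read was not settled.

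MT1G and MT1H, neighbours in the cluster, rose by similar amounts. MT1G, read by 204745_x_at, gave 456, 504 and 376 with androgen, and 1622, 1871 and 1636 with celastrol. The vehicle arrays lay between, at 571, 577 and 513. Celastrol thus separated completely from both other groups (3.86-fold over androgen, log2 1.95 ± 0.12, limma adjusted p = 3.79e-05). MT1H gave 165, 149 and 144 with androgen and 553, 595 and 584 with celastrol, with vehicle at 206, 186 and 151. Its celastrol arrays were also above all others (3.78-fold over androgen, log2 1.92 ± 0.12, limma adjusted p = 3.79e-05).

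MT1F was read by 2 probe sets. In 213629_x_at the androgen arrays gave 311, 295 and 256, and the celastrol arrays 965, 991 and 927. The vehicle arrays gave 281, 248 and 211, which overlapped the androgen arrays but not the celastrol arrays. The change was 3.35-fold (log2 1.74 ± 0.12, limma adjusted p = 6.32e-05). In 217165_x_at the androgen arrays gave 159.5, 167 and 125 and the celastrol arrays 542, 592 and 584. Here vehicle array 3 read 74.1 where vehicle arrays 1 and 2 read 167 and 176, so the vehicle spread was wide while the celastrol arrays stayed apart (log2 1.94 ± 0.29 over androgen, limma adjusted p = 0.00297).

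MT1M, an isoform best known from liver, read low. Its probe set 216336_x_at gave 36.0, 34.9 and 27.8 with androgen and 58.4, 55.4 and 75.2 with celastrol. The groups did not overlap, and the vehicle arrays, at 38.5, 43.1 and 31.4, also lay below celastrol. The change was 1.91-fold (log2 0.93 ± 0.17, limma adjusted p = 0.00640). The mean log2 value lay at percentile 23.9 of all probe sets with vehicle, 19.4 with androgen and 46.3 with celastrol. Starting values this low can understate a fold change, so its size is not ranked against those of the other members.

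MT1E, next to MT1M in the cluster and known from epithelial cells, was not called. It gave 52.0, 59.8 and 48.5 with androgen and 41.8, 93.7 and 66.2 with celastrol, the latter the widest relative range of any member within that group. Celastrol array 1 was below every androgen array and celastrol array 2 above, so the groups overlapped. The log2 change was 0.26 ± 0.27, with a 95% interval from -0.36 to 0.88 (limma adjusted p = 0.660). Its mean log2 value lay at percentile 41.1 of all probe sets with vehicle, 42.7 with androgen and 46.8 with celastrol. The lack of a call does not show that MT1E was unchanged.

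**Figure D2:**
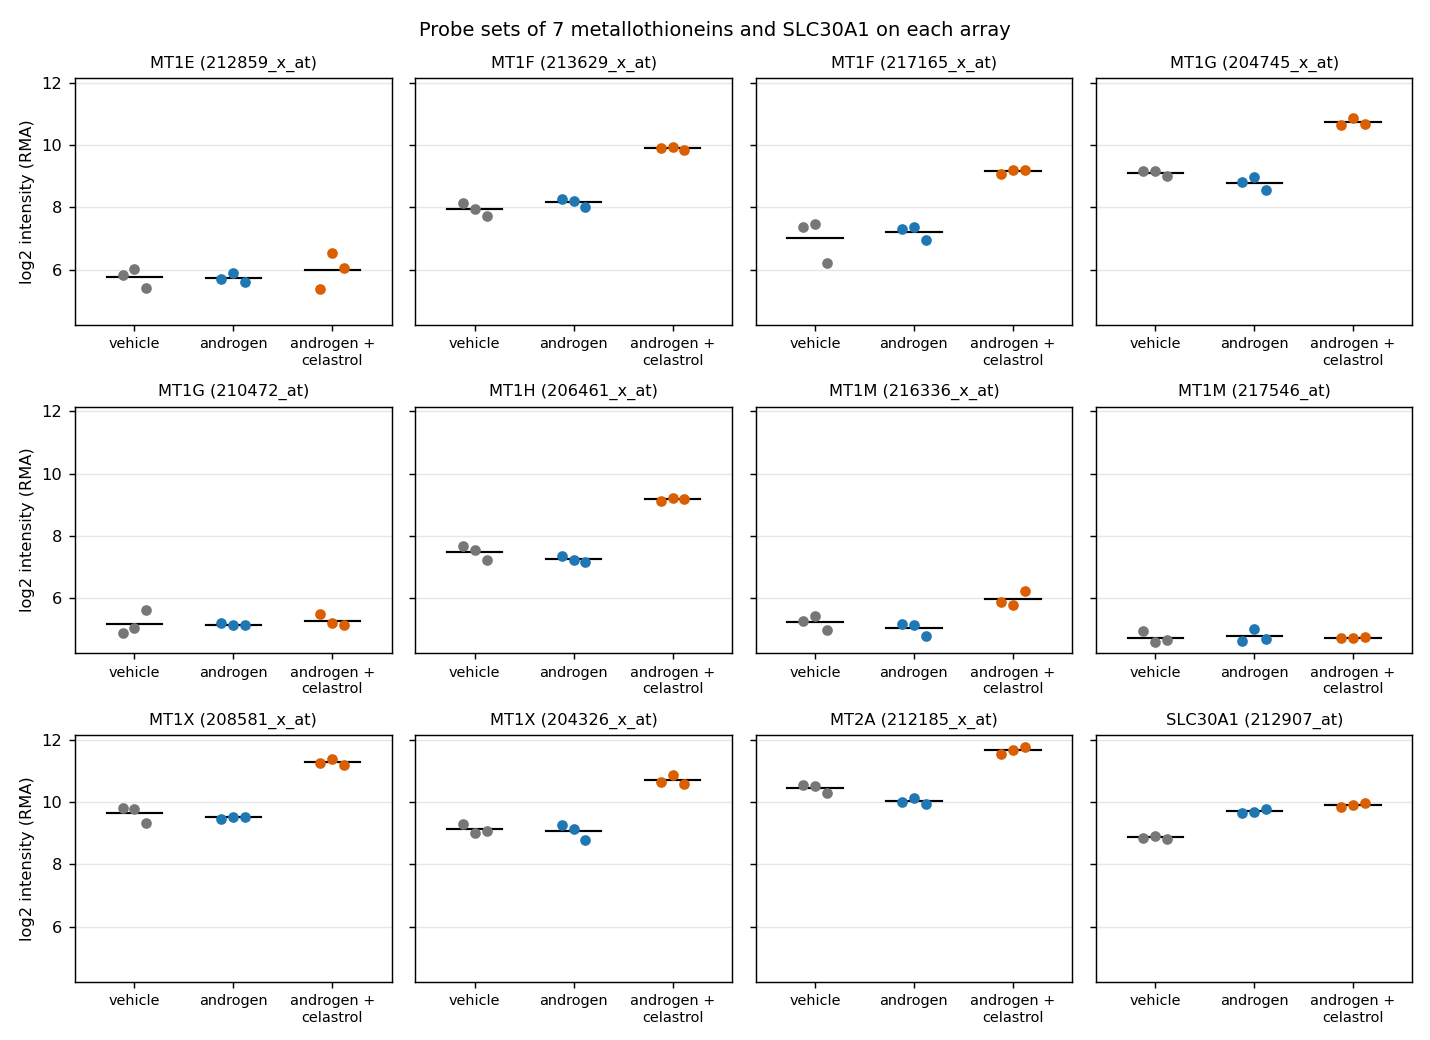
Log2 of the deposited intensity of each member probe set on each of the 9 arrays, by group, with a point for each array and a line at each group's mean log2 value. The 3 celastrol arrays lie above all others in 8 of the 11 metallothionein panels, MT1E and the probe sets 210472_at and 217546_at overlap, and SLC30A1 is high in both groups that received androgen.

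Of the 9 x_at members 8 were called higher with celastrol, while neither of the 2 sets with the plain suffix was called. The plain MT1G set, 210472_at, read 36.5, 35.2 and 35.2 with androgen and 45.2, 37.1 and 35.2 with celastrol, against 29.6, 32.7 and 48.9 with vehicle. All 3 groups overlapped, and the log2 change was 0.13 with a 95% interval from -0.28 to 0.54 (limma adjusted p = 0.756). The plain MT1M set, 217546_at, read 26.6, 26.1 and 27.0 with celastrol and 24.5, 32.2 and 25.8 with androgen (log2 -0.04, 95% interval -0.33 to 0.25, limma adjusted p = 0.908). Group means of 210472_at lay at percentiles 21.9 to 29.1 of all probe sets and those of 217546_at at 4.39 to 7.46. At such low readings a probe set may not follow its transcript, and the lack of a call in these sets does not show that MT1G or MT1M was unchanged. Averaging both sets gave a log2 change of 1.04 for MT1G and of 0.45 for MT1M, past the threshold in either gene.

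Over the 9 arrays the x_at members other than MT1E correlated with MT2A at r from 0.92 to 0.99, MT1E at 0.42, 210472_at at 0.15 and 217546_at at -0.02. These are descriptions over arrays that fall into 3 groups, and the x_at sets may share probes. Outside the members, MT1HL1, a gene copy similar to MT1H, also rose with celastrol by log2 1.24 ± 0.10 (limma adjusted p = 0.000105). MT3, the isoform known from brain, and MT4, known from squamous epithelium, read 31.0 to 34.0 and 29.0 to 32.0 with androgen. Neither was called with celastrol (log2 0.28 ± 0.19 and 0.17 ± 0.15, limma adjusted p = 0.460 and 0.592). How far one transcript contributes to several x_at sets was not tested.

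Androgen alone raised SLC30A1, while no metallothionein was called higher and 1, MT2A, was called lower. SLC30A1 read 462, 484 and 454 with vehicle and 805, 819.5 and 878 with androgen. All androgen arrays were above all vehicle arrays, and the 3 vehicle arrays lay close together. The means were 466 ± 15.5 and 834 ± 38.5 (SD, n = 3 each), a 1.79-fold rise (log2 0.84 ± 0.08, limma adjusted p = 0.000156). Of the 12 members 2 were called, SLC30A1 higher and MT2A lower, where 10.5% of all probe sets were called, 6.04% higher and 4.47% lower.

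MT2A fell by 0.42 on the log2 scale with androgen (SE 0.10, limma adjusted p = 0.0320), from 1406 ± 135 to 1046 ± 63.9 (SD, n = 3 each). Its androgen arrays were all below its vehicle arrays. The call rested on the setting: with the replicate number as a block, limma gave an adjusted p of 0.0670. It was also lost when any one of vehicle arrays 1 and 2, androgen arrays 1, 2 and 3 or celastrol array 2 was left out, with adjusted p from 0.0563 to 0.118, whereas without vehicle array 3 it was 0.0109. MT1G (204745_x_at) showed androgen arrays wholly below vehicle arrays too, without passing the test (log2 -0.32 ± 0.12, limma adjusted p = 0.164). Arrays of the groups did not overlap in 3 members, SLC30A1 upward and these 2 downward, and in 25.3% of all probe sets.

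None of the 11 metallothionein probe sets was called higher with androgen in limma, and 0 had an unadjusted p under 0.05 upward. The 9 not yet given had log2 changes between -0.24 (MT1H, limma adjusted p = 0.336) and 0.23 (MT1F 213629_x_at, limma adjusted p = 0.360). MT1H passed only without vehicle array 3, at log2 -0.36 (limma adjusted p = 0.0444). For MT1F 217165_x_at the sign turned without that array, from 0.20 to -0.20, with neither value past the threshold. The median log2 change was -0.07 over the metallothionein probe sets and -0.04 over all probe sets.

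SLC30A1 was 1.15-fold higher with celastrol and androgen than with androgen alone. The combined arrays read 923, 969.6 and 994, all above the androgen arrays, with a mean of 962 ± 36.0 (SD, n = 3). The further change was log2 0.21 ± 0.08, with a 95% interval from 0.03 to 0.38, and did not pass after adjustment (limma unadjusted p = 0.0268, adjusted p = 0.140). Members whose celastrol and androgen arrays did not overlap numbered 9, all upward, against 18.3% of all probe sets. Under the 19 alternative settings the SLC30A1 change stayed between 0.17 and 0.24, with adjusted p from 0.0846 to 0.343.

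Against vehicle, the combined treatment raised 9 of the 12 members, the same 8 metallothionein probe sets and SLC30A1, where 11.1% of all probe sets were called higher. These groups share their 24 h label. SLC30A1 was 2.06-fold higher (log2 1.04 ± 0.08, limma adjusted p = 3.30e-05), and its arrays did not overlap. MT2A was 2.32-fold higher (log2 1.21 ± 0.10, limma adjusted p = 7.29e-05). The other called metallothionein probe sets ranged from log2 0.74 ± 0.17 in MT1M (limma adjusted p = 0.0131) to 2.14 ± 0.29 in MT1F 217165_x_at (limma adjusted p = 0.00100), the latter 1.74 without vehicle array 3. MT1E was again not called (log2 0.24 ± 0.27, limma adjusted p = 0.594). This comparison shares arrays with both others.

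**Figure D3:**
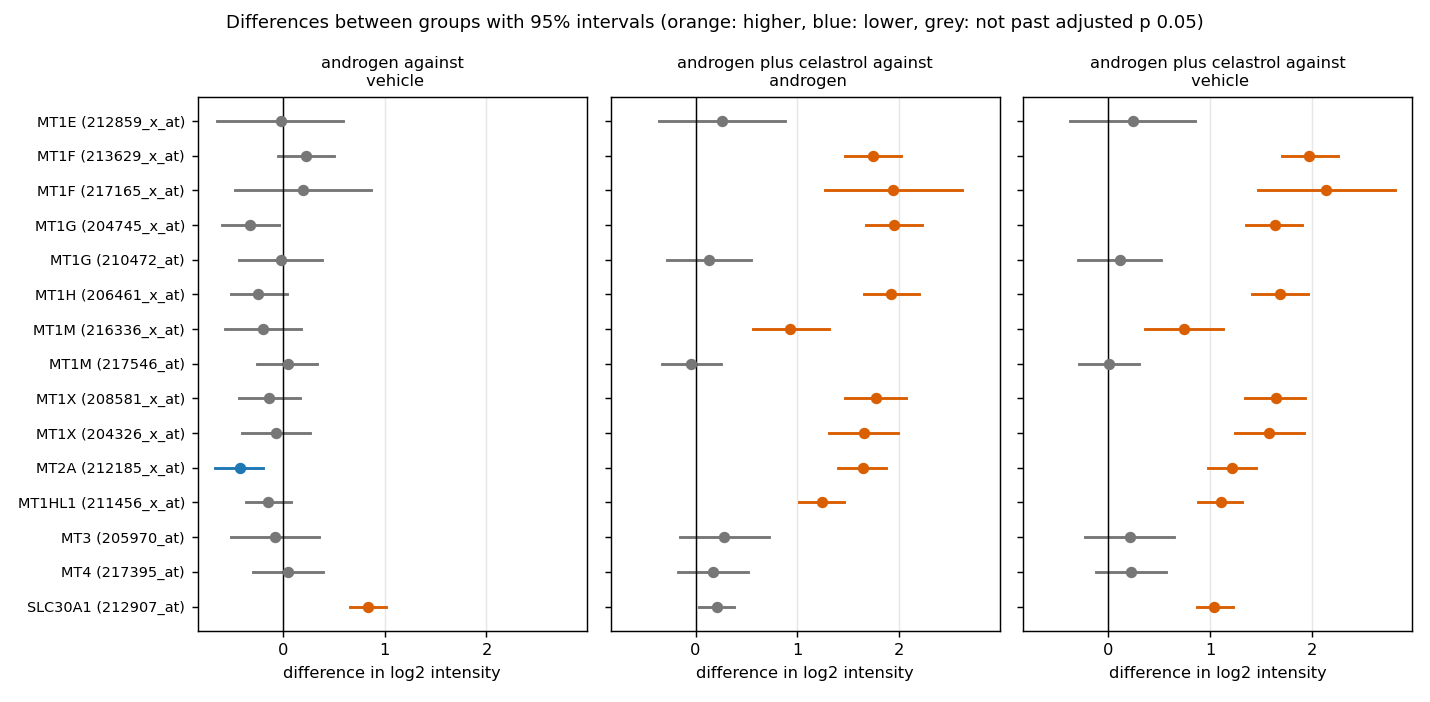
Difference in log2 intensity, with its 95% confidence interval from limma, of each member and each other metallothionein probe set in the 3 comparisons, coloured where the adjusted p passed the threshold. For androgen against vehicle only SLC30A1 (0.84) and MT2A (-0.42) pass the threshold, while with celastrol 8 member metallothionein probe sets lie between 0.93 and 1.95 above androgen and SLC30A1 at 0.21.

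The responses of the metallothioneins and of SLC30A1 were then compared directly, by subtracting the log2 value of SLC30A1 on each array and refitting limma over all other probe sets. With celastrol added to androgen, the same 8 metallothionein probe sets rose by more than SLC30A1, as did 3.06% of all probe sets. The difference in log2 response was 1.74 ± 0.14 for MT1G (204745_x_at, limma adjusted p = 6.50e-05) and 0.73 ± 0.17 for MT1M (216336_x_at, limma adjusted p = 0.0162). MT1E, 210472_at and 217546_at differed from SLC30A1 by 0.05, -0.08 and -0.25 and did not pass. With androgen against vehicle, 10 of the 11 had a lower response than SLC30A1, a share near the 92.7% of all probe sets that did.

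Members were also set against MT2A in the same way. With celastrol, the log2 response over androgen was larger by 0.31 in MT1G (204745_x_at, limma adjusted p = 0.0325) and by 0.28 in MT1H (limma adjusted p = 0.0381), as it was in 0.158% of all probe sets. Nearly every probe set was called in this fit, so adjustment hardly moved the limma p-values (0.0323 and 0.0379 unadjusted). The log2 response was smaller than that of MT2A in 4 probe sets, as in 99.4% of all probe sets. These were MT1E (-1.38), both plain sets and 216336_x_at of MT1M, and the last 3 read so low that a smaller log2 response than that of MT2A says little about their genes. MT1E also read below the middle of the array, at percentiles 41.1 to 46.8. The 4 probe sets of MT1X and MT1F did not differ from MT2A past the threshold. With androgen, 3 of the 10 other metallothionein probe sets responded above MT2A, both MT1F sets (0.65 and 0.63, limma adjusted p = 0.00302 and 0.0472) and 217546_at (0.47, limma adjusted p = 0.0172), a smaller share than the 46.3% of all probe sets that did. The change of 217546_at itself was 0.05, at percentiles 4.39 to 7.46 of the array, so its difference from MT2A says little about MT1M. Without vehicle array 3 the log2 change with androgen was -0.20 in MT1F 217165_x_at and -0.51 in MT2A.

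Other genes of zinc and copper handling were counted from lists of genes, each gene read by its brightest probe set. Over all 12165 genes, celastrol with androgen raised 8.13% and lowered 6.60% compared with androgen, and androgen raised 6.71% and lowered 5.35% compared with vehicle. Among the 6 measured SLC30 transporters other than SLC30A1, androgen raised 0 in limma (0 also at an unadjusted p under 0.05) and lowered 1. This was SLC30A4, which loads zinc into vesicles, from 1119 ± 34.0 to 805 ± 20.1 (SD, n = 3 each; log2 -0.47 ± 0.09, limma adjusted p = 0.0119, 0.0571 without androgen array 2). SLC30A5, which supplies zinc to the secretory pathway, moved by 0.14 ± 0.08 with androgen and 0.11 ± 0.08 with celastrol added, neither called. Celastrol over androgen changed 0 of the 6 in limma, with 2 lower at an unadjusted p under 0.05.

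Of 8 measured SLC39 genes, which bring zinc into the cytosol, androgen raised 2 and lowered 1. SLC39A8, a surface importer of zinc and other divalent metals, fell from 2264 ± 104 to 1165 ± 84.3 (SD, n = 3 each; log2 -0.96 ± 0.10, limma adjusted p = 0.000324), without overlap, and stayed at 1208 ± 127 with celastrol. The mean over the probe sets of SLC39A8 fell by 0.49 (limma adjusted p = 0.00226). SLC39A7, which releases zinc from the endoplasmic reticulum, rose from 136 ± 42.5 to 410.3 ± 149 (log2 1.58 ± 0.34, limma adjusted p = 0.0181), a call lost without androgen array 1 or 2 (0.0736 and 0.0783). SLC39A6 rose by 0.31 (limma adjusted p = 0.0479, 0.0679 with the replicate block), a call kept in only 6 of the 19 alternatives. It was lost whichever array was left out, with limma adjusted p from 0.0520 to 0.170. The mean over the probe sets of SLC39A6 rose by 0.47 (limma adjusted p = 0.00301).

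With celastrol added, 0 of the 8 SLC39 genes were called higher in limma and 2 were lower. SLC39A4, the intestinal type of zinc importer, fell by 0.64 (SE 0.12, limma adjusted p = 0.00923), and SLC39A6 fell by 0.38 (SE 0.08, limma adjusted p = 0.0160; 0.0536 without androgen array 1, 0.0689 without androgen array 3 and 0.0612 without celastrol array 2). SLC39A1 and SLC39A14, both zinc importers, had log2 changes of 0.37 ± 0.19 and 0.27 ± 0.10 and were not called (limma adjusted p = 0.310 and 0.136). SLC39A10 was not analysed here.

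In the copper list, celastrol raised 3 of 12 measured genes over androgen. SLC31A1, the high-affinity copper importer, rose from 905 ± 35.9 to 2150.5 ± 76.6 (SD, n = 3 each), with vehicle at 779 ± 8.05 (log2 1.25 ± 0.07, limma adjusted p = 2.99e-05). ATP7A, the copper-exporting ATPase, rose by 0.59 ± 0.09 (limma adjusted p = 0.00384), and by 0.36 in the mean over its probe sets (limma adjusted p = 0.0137). SOD1, the copper and zinc superoxide dismutase, rose by 0.42 ± 0.08 (limma adjusted p = 0.00912). With androgen alone only COX17, which carries copper to cytochrome oxidase, was called in this list (log2 0.45 ± 0.08, limma adjusted p = 0.00486).

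**Figure D4:**
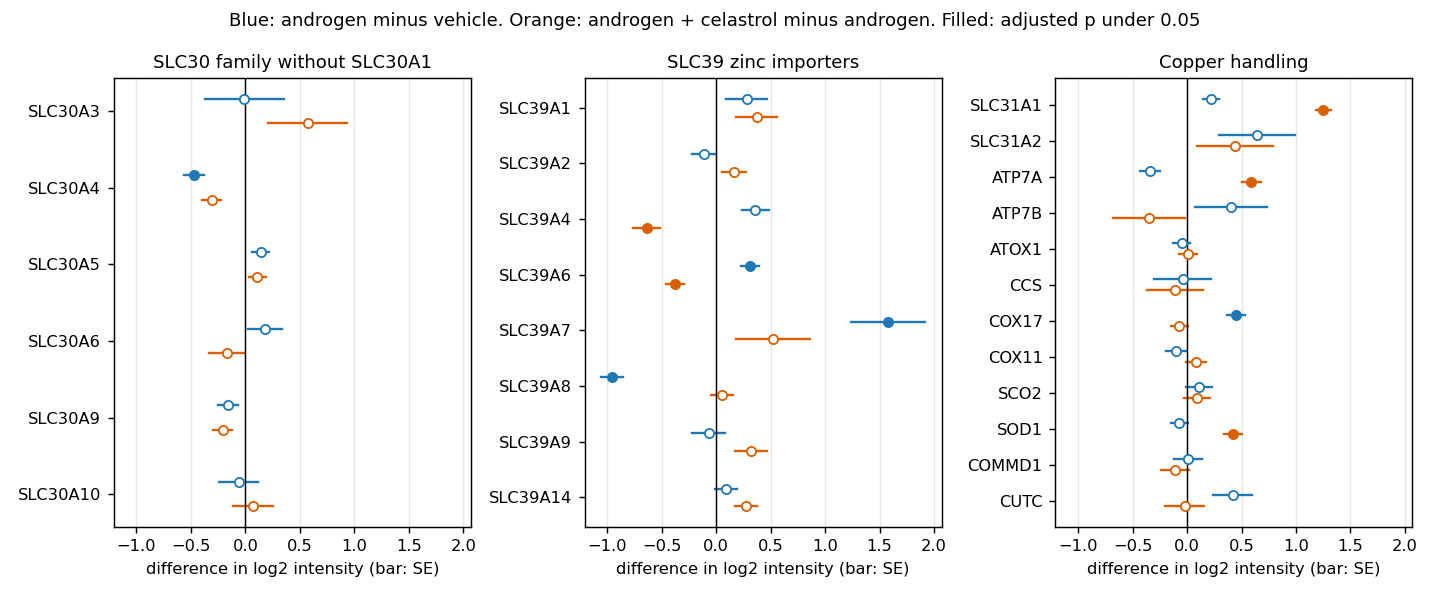
Difference in log2 intensity (bar: SE from limma) of the measured SLC30 genes other than SLC30A1, SLC39 genes and copper genes, in blue for androgen minus vehicle and in orange for androgen plus celastrol minus androgen, with filled points past the threshold. SLC39A8 lies lowest with androgen (-0.96), SLC39A7 highest (1.58), and SLC31A1 highest with celastrol (1.25).

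MTF1, the zinc-sensing factor itself, read 178 ± 22.8 with vehicle, 203 ± 11.2 with androgen and 223 ± 20.2 with celastrol (SD, n = 3 each). It was called in none of the comparisons (limma adjusted p = 0.422, 0.581 and 0.0838), and its activity is not measured by its transcript. Of 9 measured factors known at metallothionein promoters, 2 rose with celastrol over androgen. These were NFE2L1 (log2 0.65 ± 0.08, limma adjusted p = 0.00121) and NFE2L2 (log2 0.53 ± 0.08, limma adjusted p = 0.00318), which bind antioxidant response elements. With androgen, STAT3 was called higher by 0.32 (limma adjusted p = 0.0467, 0.0878 with the replicate block), a call kept in only 7 of the 19 alternatives. Leaving out any array other than vehicle array 3 lost it, with limma adjusted p from 0.0534 to 0.163. The other probe set of STAT3 was not called.

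Of 12 measured oxidant and metal stress genes, celastrol raised 9 over androgen and lowered 1, DNAJB1, whose other probe set was not called. The remaining 2, HSPA1A and HSPA1B, were not called (log2 -0.18 and -0.14), and HSPA1A read low, with group means from 26.2 to 30.0. HMOX1, heme oxygenase 1, which breaks down heme and is a target of NFE2L2, went from 70.2 to 5375 (log2 6.27 ± 0.26, limma adjusted p = 4.20e-06). SLC7A11, the cystine importer that feeds glutathione synthesis, rose by 1.94 (SE 0.10, limma adjusted p = 1.82e-05), GCLM, a subunit of the glutathione synthesis enzyme, by 1.64 (SE 0.11, limma adjusted p = 5.86e-05), and the quinone reductase NQO1 by 1.34 (SE 0.08, limma adjusted p = 2.48e-05). Androgen raised 2 genes of this list and lowered 1. SLC7A11 rose by 0.50 (limma adjusted p = 0.0108) and GCLM by 0.51 (limma adjusted p = 0.0192, 0.0533 with the replicate block), while GCLC, the other subunit of that enzyme, fell by 0.66 (limma adjusted p = 0.00483). The GCLM call was also lost without vehicle array 1 or 2 or androgen array 1 or 3 (limma adjusted p from 0.0678 to 0.0787). Of 4 measured genes of citrate metabolism, which is linked to zinc in the prostate, ACLY, the citrate lyase, rose by 0.55 with androgen (limma adjusted p = 0.00609) and fell by 0.61 with celastrol (limma adjusted p = 0.00375). The other 3, CS, SLC25A1 and IDH2, were called in neither of these comparisons.

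Outside the family, the genes whose log2 values ran most like the mean metallothionein profile over the 9 arrays were GDF15 (r = 0.9958), HMOX1 (0.9953), GLA (0.9925), HTATIP2 (0.9924) and PCK2 (0.9921). GDF15, a secreted stress cytokine, had means of 965 with vehicle, 783 with androgen and 5292 with celastrol. Its log2 change with celastrol over androgen was 2.76 in this probe set and 1.53 in the mean over its probe sets (limma adjusted p = 3.10e-05). The profile of SLC30A1 was most closely followed by MALT1 (r = 0.9927), TNFRSF10B (0.9921), CSNK1A1 (0.9920), HERPUD1 (0.9917) and INSIG1 (0.9912). HERPUD1, a gene of endoplasmic reticulum protein disposal, had means of 1489, 3129.9 and 3334 in that order of groups, and INSIG1, a regulator of sterol synthesis, had 1008, 2233 and 2815. Each gene was placed by its probe set with the highest r, which in HTATIP2, MALT1 and TNFRSF10B was not the brightest one of the gene. Values of the brighter sets of these genes are not given here. Each r is a description over 9 arrays that fall into 3 groups.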

How the data were processed

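RNA of 9 LNCaP cultures was hybridised to Affymetrix human arrays. The table deposited by the authors holds linear intensities from RMA, as the submitters' processing notes name it. The RMA release is not given in the sources used here. RMA equalises arrays, so a change in total RNA is not seen. Log2 was taken with a pseudocount of 0 and fitted over all 9 arrays by lmFit and eBayes, no trend, of limma 3.58.1 (R 4.3.3). Of the probe sets, 19724 had 1 gene, 568 several and 1923 none listed; gene IDs of 19707 were found in the RefSeq table. The members, lists, tests and the rule for named genes were chosen with earlier results of these data known. The rule named all family probe sets, up to 4 called genes per list for celastrol and up to 2 for androgen, MTF1, SLC39A1, SLC39A10, SLC39A14, SLC30A5 and HMOX1, and the 5 genes most alike by r to each profile. The fits relative to SLC30A1 and MT2A were added after seeing the data. Same-numbered vehicle and androgen arrays deviated together (r = 0.39, 0.37 and 0.63), although arrays 1 and 2 did so across numbers too (r = 0.41 and 0.30). The labels state no pairing, and the values given come from the fit without pairs unless the replicate block is named. Numbers did not pair the combined group, yet the replicate block fitted the number over all 9 arrays, that group included. Alternatives covered the replicate block, arrays fitted, normalization, pseudocount, dim probe sets, trend, probe set choice and leaving out each array. The fit was tested on simulated data.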

Additional observations from a re-analysis of the deposited data

How the results depend on the processing

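Over the 19 alternatives, the metallothionein probe sets called with celastrol over androgen kept their direction and passed the threshold in each one that read them, as did the SLC30A1 rise with androgen (log2 0.77 to 0.92). The number of members called was 1 with androgen in place of 2 under the replicate block, with only the 6 arrays compared, and with array medians subtracted, in each case through MT2A (adjusted p = 0.0670, 0.0582 and 0.0536 in limma). Leaving out 1 array gave 1 to 3 members with androgen, 8 with celastrol over androgen and 9 over vehicle. With 1 value per gene, the mean of its probe sets, fewer features were tested, and 1497 genes were called with androgen (2333 probe sets otherwise), 1845 with celastrol over androgen (2792) and 2725 over vehicle (4222). Leaving out 1 array gave 1552 (without androgen array 2) to 2631 (without vehicle array 3) with androgen, 1750 (without androgen array 2) to 3919 (without vehicle array 3) with celastrol over androgen, where androgen arrays 1 and 3 gave 1844 and 1820, and 3326 to 4365 over vehicle. Subtracting array medians moved the split of higher to lower calls from 1341 and 992 to 1821 and 738 with androgen. The replicate block changed no other member call. Among single probe sets, 43 values changed sign, 0 of them past the threshold in either setting, and the cause of lost calls was not tested. With 3 arrays per group, small changes could be missed, and low readings limit the plain probe sets, 216336_x_at of MT1M and, less so, MT1E.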
